A study of Bos taurus with 3 samples.

Results

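The KRT17-high epithelial cells of the newborn rumen were selected on measured levels in the libraries of 3 newborn Holstein calves. A barcode was kept with 500 to 4000 detected genes, at most 50000 unique molecular identifiers (UMIs, each standing for 1 captured RNA molecule) and at most 40% of its UMIs in the 13 mitochondrial coding genes. A kept cell was called epithelial when KRT5, KRT14 and KRT15 together reached at least 10 UMIs per 10000 of the cell and it held no UMI of PTPRC, PECAM1 or COL3A1. An epithelial cell was called KRT17-high at 15 or more KRT17 UMIs per 10000, with the summed levels of KRTDAP, of the chemokines CXCL2, CXCL3, GRO1 and CCL20, and of the mitotic genes MKI67, TOP2A, CENPF, UBE2C and TPX2 each below 10 per 10000. The rule gave 842 of 21884 epithelial cells and of 26020 kept cells. They were compared with the 17628 epithelial cells whose KRT17 was under 3 per 10000, called KRT17-low below.

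The wall of the ventral rumen sac was taken from each calf on the day after birth, freed of its outer muscle, digested with trypsin and then with collagenases, dispase and hyaluronidase, and sequenced as 1 droplet 3′ library per calf. The 3 calves form 1 group with no named treatment, so no treatment or age is compared, and the adult animals of the study were not analysed here. A calf is the replicate throughout, and its cells are not. The method reads free cells, so layers of the epithelium are known only from their genes.

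KRT17 is a type I keratin that is scarce in resting epidermis and common in hair follicle sheaths, in developing stratified epithelium and in wounded skin, where it appears together with KRT6A, KRT6B and KRT16. TNFRSF6B is a secreted decoy receptor that binds the ligands FASLG, TNFSF14 and TNFSF15 and keeps them from their membrane receptors. The rumen is lined by a stratified squamous epithelium whose basal cells carry KRT5, KRT14 and KRT15, and whose upper cells cornify and, in the mature organ, take up short-chain fatty acids.

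KRT17-high cells were a minority in each calf, and the calves differed. They were 56 of 4637 epithelial cells in calf 1, a share of 1.21% (exact Clopper-Pearson 95% confidence interval 0.914 to 1.57), 544 of 9122 or 5.96% (5.49 to 6.47) in calf 2, and 242 of 8125 or 2.98% (2.62 to 3.37) in calf 3. The intervals, which cover counting error only, did not meet, and the mean over calves was 3.38% ± 2.40 (SD, n = 3). Calf 2 gave 64.6% of all KRT17-high cells, and without it the mean share was 2.09%. Another 41, 108 and 83 cells of calves 1, 2 and 3 reached the KRT17 limit and were set aside for their KRTDAP, chemokine or mitotic level.

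The libraries held 7529 to 12043 barcodes and 82263092 to 106145091 UMIs. KRT17-high cells were deeper than KRT17-low cells in each calf, with a median of 14060.5, 9562.5 and 8372.5 UMIs against 10274, 6668 and 7908, and a median of 6.65%, 7.50% and 6.34% mitochondrial UMIs against 5.23%, 5.43% and 5.53%. The part of depth in the results was tested by thinning each cell to 2000 UMIs, and the part of the mitochondrial share was not tested beyond a limit of 20%. Between 21 and 37 cell barcodes were shared by pairs of libraries.

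The genes of the rule are given as a description, without a test. KRT17 in single KRT17-high cells had a median of 20.6, 32.4 and 20.7 UMIs per 10000 in calves 1, 2 and 3 and a maximum of 132, 735 and 219. Summed over the cells of a calf, KRT17 was at 30.7, 44.4 and 27.7 per 10000, against 0.436, 0.501 and 0.451 in KRT17-low cells. All other levels below are such sums over the cells of a class in a calf, in UMIs per 10000, given for calves 1, 2 and 3 in this order.

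The basal keratins did not move together. KRT14, the type I partner of KRT5 in dividing basal cells, was at 40.4, 57.6 and 20.8 in KRT17-high cells against 9.95, 9.21 and 11.1 in KRT17-low cells, higher in all 3 calves. KRT15, a keratin of slow-cycling basal cells, was at 66.7, 102 and 71.6 against 118, 130 and 107, lower in all 3. KRT5 was at 55.8, 85.7 and 38.6 against 52.4, 41.8 and 42.4, so calf 3 went against the other two. The KRT17 gene stands among its relatives in the RefSeq gene order of the ARS-UCD2.0 assembly, with KRT9, KRT14 and KRT16 before it and KRT42 after it, and reads of near-identical keratins may be split between these genes.

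Apart from the genes of the rule, which were left out of the test, 12682 genes were tested between KRT17-high and KRT17-low cells. Among the named genes large increases were those of the stress keratin KRT6A, the retinoic acid hydroxylase CYP26A1, the gap junction proteins GJB2 and GJA1, and TNFRSF6B. In all, 2231 genes differed, which is 17.6% of those tested (edgeR's quasi-likelihood test on the sums per calf, calf as a block, Benjamini-Hochberg adjusted p under 0.05). Of these, 1175 were higher in KRT17-high cells, 9.27% of the genes tested, and 1056 were lower, 8.33%. Every count of a gene list below is to be read beside these shares. At least a 2-fold difference was reached by 348 of the higher and 270 of the lower genes, and the median log2 difference of all genes tested was -0.08. Without calf 2 the count was 959, after thinning it was 491, and without the pairing by calf 7 genes were left, all higher.

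KRT6A, the wound keratin, had the largest increase among the genes named by a fixed rule of size. Its levels were 1.75, 8.94 and 3.55 in KRT17-high cells against 0.130, 0.320 and 0.148 in KRT17-low cells. The lowest KRT17-high value was thus above the highest KRT17-low value, and the ratio within a calf ranged from 13.5 to 27.9. The log2 difference was 4.40 ± 0.17 (SE), with an edgeR adjusted p of 7.05e-14. KRT6B, its neighbour and near relative, was at 0.0414, 1.07 and 0.205 against 0.0306, 0.0345 and 0.0290, so that nearly all of its UMIs came from calf 2. Its log2 difference was 3.63 ± 0.40 (edgeR adjusted p = 1.48e-06), 2.29 without calf 2, and with DESeq2 it did not pass, at 2.83 with an adjusted p of 0.0578. KRT6A and KRT6B are alike in sequence, and the share of reads assigned to the wrong copy was not tested.

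Of all 50 keratins in the files 15 were tested, of which 4 were higher, KRT6A and KRT6B among them, and 2 lower. KRT16, named above with KRT17 in wounded skin, was in the files but its counts were too low to be tested. KRT42, the neighbour of KRT17, was at 0.290, 0.743 and 0.466 against 0.105, 0.240 and 0.139, a log2 difference of 1.62 ± 0.15 (edgeR adjusted p = 1.48e-07). Of the 6 suprabasal keratins tested 0 were called by edgeR, with 1 at an unadjusted p under 0.05, and 0 by DESeq2. KRT4, the keratin of moist stratified epithelia, was at 17.2, 12.5 and 1.65 against 17.1, 12.1 and 2.12 (edgeR adjusted p = 0.387). The keratins of simple epithelia went the other way for KRT19, at 2.56, 0.500 and 0.359 against 5.64, 1.16 and 0.646, a log2 difference of -1.12 ± 0.12 (edgeR adjusted p = 9.86e-07), and for KRT7, with -0.71 ± 0.13 (edgeR adjusted p = 0.000654), though KRT7 did not pass after thinning.

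TNFRSF6B was at 0.290, 1.69 and 0.790 in KRT17-high cells against 0.0996, 0.0755 and 0.134 in KRT17-low cells. Calf 2 was highest and the classes did not overlap, with a ratio of 2.91, 22.4 and 5.88 within the calves. The log2 difference was 3.12 ± 0.32 (edgeR adjusted p = 5.44e-07) and lay between 2.21, without calf 2, and 3.57 when a calf was left out. Of the list of TNFRSF6B, its ligands and further receptors of its family, 6 of 8 measured genes could be tested. The ligands FASLG and TNFSF14 were at 0 in KRT17-high cells. Besides TNFRSF6B, only TNFRSF21, a death-domain receptor, was called, at 0.262, 0.265 and 0.162 against 0.0557, 0.0611 and 0.0650 (log2 difference 1.85 ± 0.21, edgeR adjusted p = 2.31e-06). FAS, the membrane receptor of FASLG, was at 0.0691, 0.0516 and 0.0598 against 0.0237, 0.0474 and 0.0431 (edgeR adjusted p = 0.394), and LTBR, a receptor of TNFSF14, had an edgeR adjusted p of 0.909.

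Since KRT17-high cells were deeper, the share of cells with at least 1 UMI of a gene was also taken after thinning each cell to 2000 UMIs, with shallower cells left out. This left 52 of 56, 514 of 544 and 229 of 242 KRT17-high cells. A KRT6A UMI was then found in 11.5%, 38.9% and 11.4% of KRT17-high cells of calves 1, 2 and 3, and in 20.6% ± 15.9 on average (SD, n = 3), against 3.24% ± 1.88 of KRT17-low cells. TNFRSF6B was found in 7.69%, 17.9% and 8.30%, or 11.3% ± 5.73, against 1.94% ± 0.673. CYP26A1 was found in 5.77%, 8.75% and 11.8%, or 8.77% ± 3.01, against 0.935% ± 0.298. Each of these transcripts was thus undetected in most KRT17-high cells at this depth, and each share was higher than in KRT17-low cells of the same calf. Without thinning the mean shares in KRT17-high cells were 44.2%, 23.2% and 20.6%. As a measure of free RNA, kept cells with a PTPRC UMI, an immune gene, were counted in the same way. After thinning there were 6, 32 and 459 of them in the 3 calves, with median depths of 6604, 6014.5 and 5786 UMIs, so only calf 3 gave a useful share. In calf 3, 0.871% (exact 95% interval 0.238 to 2.22) held KRT6A, and in calf 2 none of 32 did, which allows up to 10.9%. Without thinning KRT6A was in 11.8% of these cells in calf 2 and in 1.86% in calf 3, and on average over calves KRT6A, TNFRSF6B and CYP26A1 were in 4.54%, 1.26% and 0.138%.

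**Figure D1:**
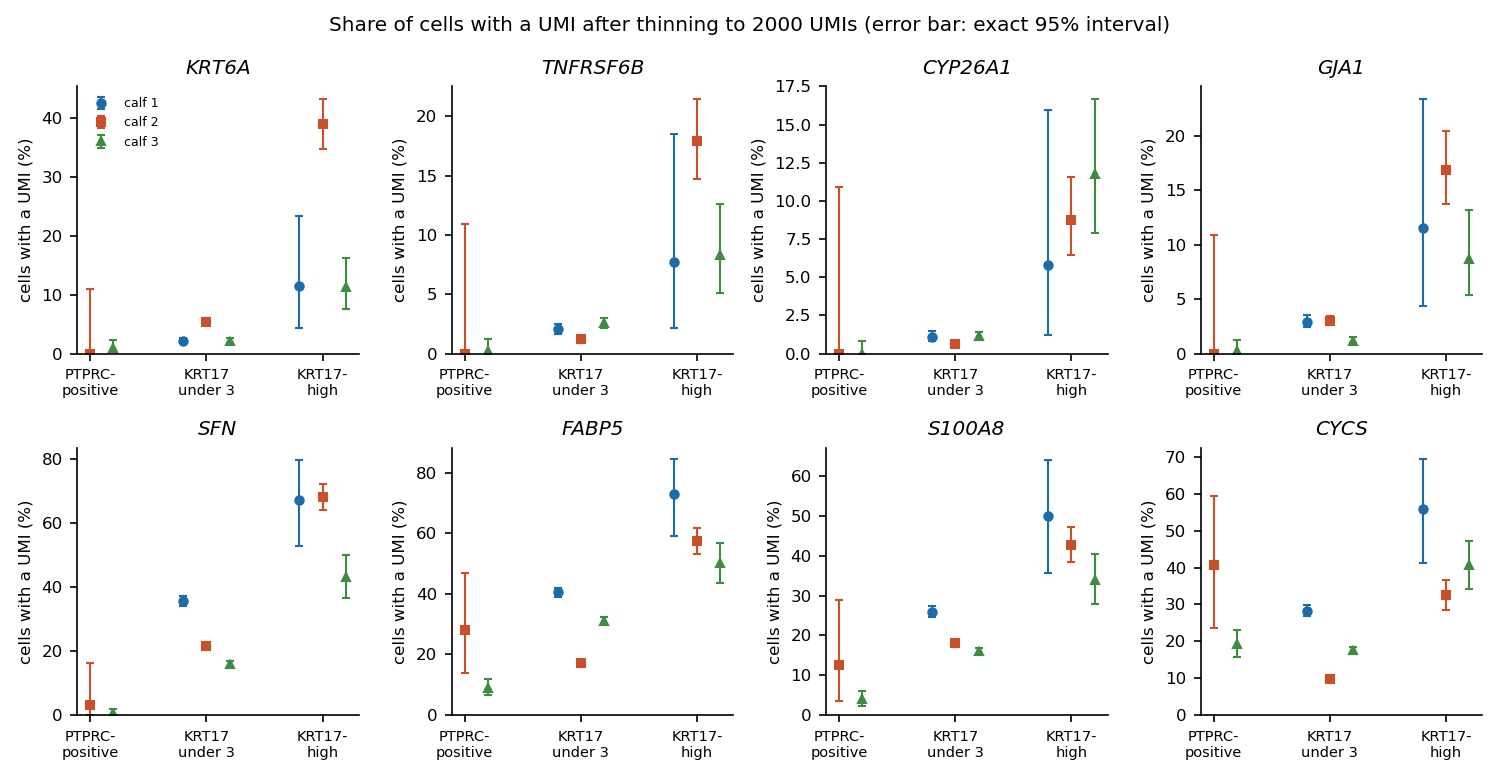
Share of cells with at least 1 UMI (percent, linear axis from 0) of 8 genes after thinning to 2000 UMIs, in cells with a PTPRC UMI, KRT17-low and KRT17-high epithelial cells; each point is 1 calf and the bar its exact 95% interval, and calf 1 is left out for PTPRC-positive cells since it gave 6. PTPRC-positive cells were held to KRT5, KRT14 and KRT15 together under 10 per 10000. The KRT17-high share lies above the KRT17-low share of the same calf in each of the 8 panels, while FABP5 and CYCS are also frequent in PTPRC-positive cells, in calf 2 with 40.6% for CYCS against 32.5% in KRT17-high cells.

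The markers did not mark the same cells throughout. In whole cells without thinning, KRT6A was found in 22 of 56, 351 of 544 and 70 of 242 KRT17-high cells, TNFRSF6B in 12, 165 and 43, both in 4, 121 and 26, and neither in 26, 149 and 155. TNFRSF6B was found in 18.2%, 34.5% and 37.1% of the KRT17-high cells with KRT6A and in 23.5%, 22.8% and 9.88% of those without it. Depth differed between these sets, with a median of 17054, 10437 and 10970 UMIs with KRT6A and 9415, 8237 and 8099.5 without, and its part was not tested. The level of GJA1 per 10000 UMIs was 2.66, 2.43 and 3.78 in cells with KRT6A against 0.0278, 0.488 and 0.319 in cells without, and KRT15 was at 53.1, 95.1 and 49.0 against 80.5, 120 and 84.1. For TNFRSF6B the calves disagreed: its level was 0.220, 2.04 and 1.80 in cells with KRT6A against 0.361, 0.874 and 0.226 without, higher in calves 2 and 3 and lower in calf 1.

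The level of KRT17 itself set the KRT17-high cells apart from one another. Among those with 15 to 30 KRT17 UMIs per 10000 (39, 246 and 192 cells), KRT6A was at 0.425, 2.88 and 0.640, and among those with 30 or more (17, 298 and 50 cells) at 4.22, 14.1 and 13.9. CYP26A1 was at 0.170, 0.525 and 1.14 in the lower range and at 2.21, 0.618 and 3.29 in the upper, and TGM3, a transglutaminase of the cornified envelope, at 0.0213, 0.116 and 0.164 and at 1.14, 0.595 and 1.32. Both genes and KRT6A were thus higher in the upper range in all 3 calves, while TNFRSF6B was so in calves 2 and 3, at 0.815 and 0.662 against 2.45 and 1.25, and in calf 1 was at 0.298 and 0.276. KRT6A, GJA1, SFN, FABP5 and S100A12 were higher with each range of KRT17 in all 3 calves, from cells under 3 on. These ranges split the cells on the gene of the rule and are given with no test. At the limit itself KRT6A was not higher inside than outside in calves 2 and 3: cells just inside, with 15 to 18 per 10000 (17, 74 and 78 cells), had KRT6A at 0.573, 1.21 and 0.570, and cells just outside, with 12 to 15 (27, 114 and 102 cells), at 0.441, 2.93 and 1.01.

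**Figure D2:**
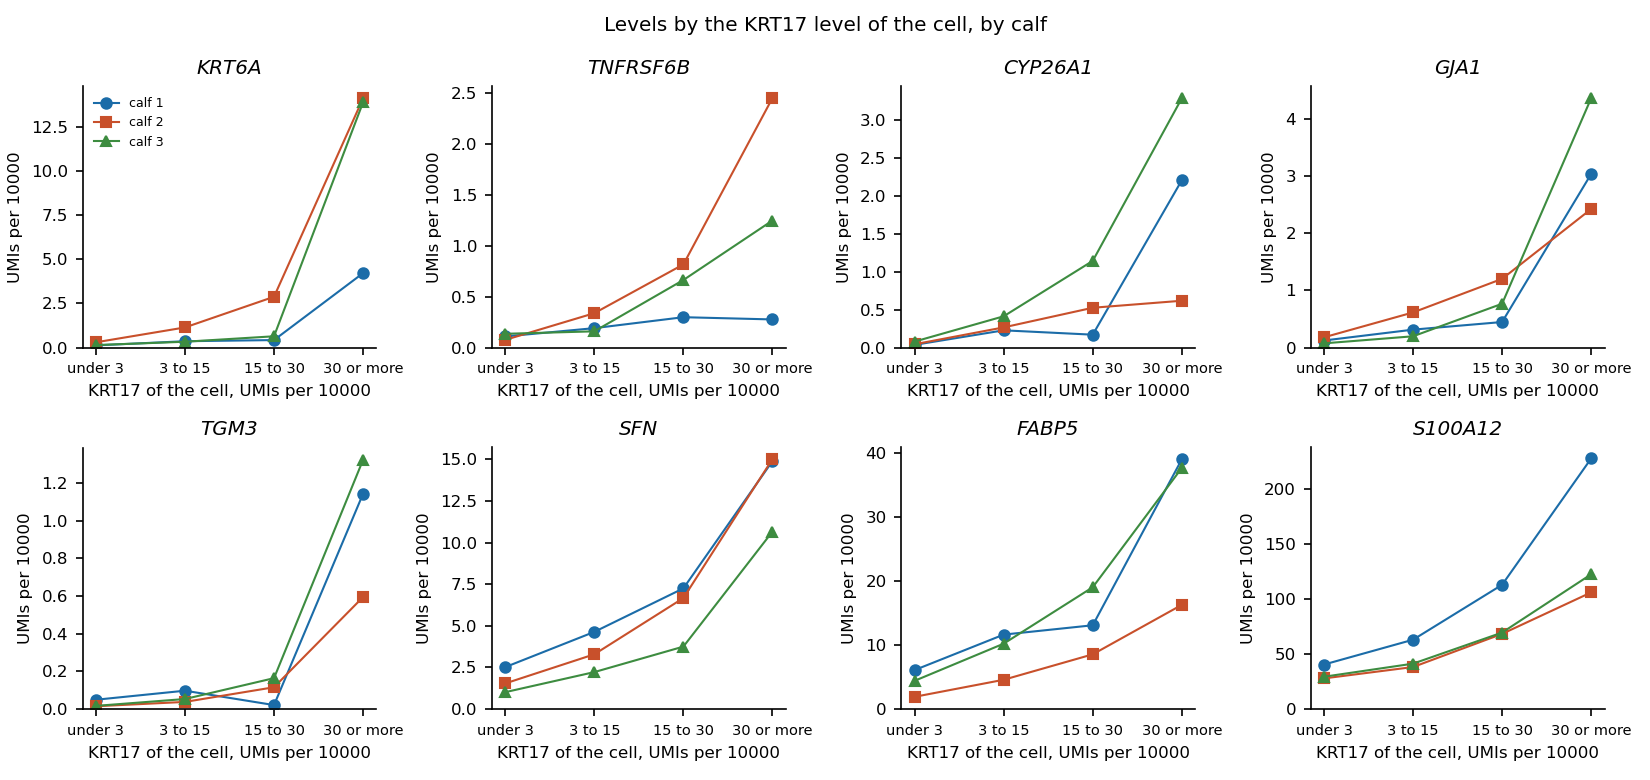
Level (UMIs per 10000 of the summed cells, linear axis from 0) of 8 genes in 4 ranges of the KRT17 level of the cell, with 1 line per calf; all cells are held to the limits on KRTDAP, chemokines and mitotic genes. KRT6A and TGM3 are far higher at 30 or more than at 15 to 30 in all 3 calves, and CYP26A1 and GJA1 in calves 1 and 3. KRT6A, GJA1, SFN, FABP5 and S100A12 are higher with every range in all 3 calves.

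Against KRT17-low cells, the changes in cell contacts were largest at gap junctions, channels that join the cytoplasm of neighbouring cells. Of 6 gap junction genes tested, 4 were higher and 0 lower, with a median log2 difference of 1.18. GJA1 (connexin 43) was at 1.35, 1.86 and 1.55 against 0.185, 0.243 and 0.0842, with no overlap and a log2 difference of 3.31 ± 0.19 (edgeR adjusted p = 1.34e-10). GJB2 (connexin 26) was at 0.857, 0.728 and 0.782 against 0.0860, 0.138 and 0.0265 (3.41 ± 0.29, edgeR adjusted p = 3.61e-08), 4.10 without calf 2 and 2.72 without calf 3. The calls of GJA1 and GJB2 held whichever calf was left out, and the others of the list did not hold without calf 2. Both GJA1 and GJB2 were higher still in KRTDAP-high cells, given below.

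Of 11 desmosome genes, which rivet neighbouring cells together, 6 were higher and 1 lower (median 0.47), and 3 of these 7 calls held without calf 2: DSC2 (1.55 ± 0.20), PKP1 (1.01 ± 0.15) and JUP (0.77 ± 0.11). After thinning PKP1 passed with 1.23, while DSC2 had 1.05 and JUP 0.46 (edgeR adjusted p = 0.120 and 0.148). DSP and PERP, at 2.50, 1.92 and 2.96 against 2.67, 1.56 and 3.16 for DSP, had edgeR adjusted p of 0.968 and 0.930. Of 12 tight junction genes, 3 were higher and 0 lower (median 0.28). CLDN4, a sealing claudin, was at 5.22, 3.99 and 5.15 against 2.16, 3.18 and 2.06 (0.93 ± 0.14, edgeR adjusted p = 8.49e-05). Of 18 genes that anchor basal cells to their basement membrane, 2 were higher and 3 lower, with a median of 0.01. Over all genes tested the shares were 9.27% higher and 8.33% lower. COL17A1, the collagen of the hemidesmosome, was at 12.1, 12.4 and 9.09 against 16.9, 15.7 and 13.3 (-0.49 ± 0.09, edgeR adjusted p = 0.000545) and LAMB1, a laminin chain, fell by 1.03 on the log2 scale. After thinning neither passed, with log2 differences of -0.47 and -0.60.

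Cornification is the last step of squamous differentiation. Of 15 of its genes tested, 7 were higher and 0 lower, against 9.27% and 8.33% of all genes tested, with a median of 1.15. The KRT17-low cells were not held to the limits on KRTDAP, chemokines and mitotic genes. With those limits the count was 10 higher and 0 lower. Of the 7 calls, 4 held whichever calf was left out, and those of CSTA, TGM5 and LY6D did not. TGM3 was at 0.414, 0.374 and 0.419 against 0.0787, 0.0230 and 0.0251, a log2 difference of 3.56 ± 0.25 (edgeR adjusted p = 2.46e-09). The other calls that held were those of TGM1, CALML5 and LYPD3, with 2.95 ± 0.27, 2.28 ± 0.18 and 2.07 ± 0.17, and TGM1 was at 3.67 without calf 2. By contrast, the envelope protein IVL was at 0.262, 0.0232 and 0.0555 against 0.150, 0.0396 and 0.00944, and the protease inhibitor SPINK5 at 0.207, 0.239 and 0.0555 against 0.288, 0.331 and 0.0449, with edgeR adjusted p of 0.373 and 0.218. SFN (stratifin, 14-3-3 sigma), a regulator of the exit from the cell cycle in keratinocytes, was at 9.93, 11.2 and 5.27 against 2.72, 1.78 and 1.06, with no overlap and a log2 difference of 2.25 ± 0.13 (edgeR adjusted p = 1.09e-10).

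Of 22 transcription factors of stratified epithelium tested, 5 were higher and 0 lower, against 9.27% and 8.33% of all genes tested, with a median of -0.10. The differentiation factors OVOL1 (2.01 ± 0.22), GRHL3 (2.20 ± 0.35), GRHL1 (0.99 ± 0.19) and ZNF750 (1.15 ± 0.27) were higher in calls that held whichever calf was left out; of these 4, GRHL3 passed after thinning. TP63, the master regulator of basal cells, was at 0.511, 0.322 and 0.470 against 0.542, 0.361 and 0.664 (edgeR adjusted p = 0.153), and KLF4 and PITX1 had edgeR adjusted p of 0.628 and 0.985.

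The S100 proteins of host defence were higher. In the list of host defence genes that answer to IL17 and IL22 in skin, 6 of 13 tested genes were higher and 0 lower. Their median was 1.10, and all genes tested gave 9.27% higher and 8.33% lower. S100A12 was at 153, 88.7 and 81.2 against 45.1, 33.7 and 31.5 (1.47 ± 0.08, edgeR adjusted p = 6.28e-11). S100A8, a subunit of calprotectin, was at 16.3, 10.1 and 8.61 against 3.02, 3.64 and 2.32 (1.89 ± 0.13, edgeR adjusted p = 8.95e-10), and S100A9, the other subunit, at 3.58, 4.32 and 2.17 against 1.83, 2.03 and 0.854 (1.10 ± 0.11, edgeR adjusted p = 5.57e-07). In these 3 genes the lowest KRT17-high calf was above the highest KRT17-low calf. S100A7 was at 12.7, 0.648 and 0.589 against 1.69, 0.267 and 0.399, so calf 1 stood far above the other two; its log2 difference was 1.60, and 0.95 without calf 1, and it did not pass with DESeq2 (adjusted p = 0.0798). Of 9 further S100 genes tested, 4 were higher and 1 lower, with S100A2 at 60.8, 83.9 and 48.4 against 33.3, 36.0 and 27.4 (0.93 ± 0.09, edgeR adjusted p = 1.48e-07). Of 6 genes of the interleukin-1 axis, IL1RN, the receptor antagonist, was higher by 2.79 ± 0.25 and its call held whichever calf was left out, while IL1R2, a decoy receptor, had an edgeR adjusted p of 0.586.

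Keratinocytes at a wound edge express a further set of genes, of which 13 of 33 tested were higher and 5 lower, with a median of 0.17. All genes tested gave 9.27% higher and 8.33% lower. Without calf 2, 11 of these 18 calls held. Among the higher genes were PLAUR, the urokinase receptor (1.75 ± 0.16), the protease inhibitor SERPINE2 (1.15 ± 0.14), TPM4 (0.96 ± 0.12) and FSTL3 (1.37 ± 0.21, not passed after thinning with 1.29). Among the lower were CD44, at 2.67, 4.01 and 3.30 against 3.85, 5.38 and 4.78 (-0.53 ± 0.10, edgeR adjusted p = 0.000800, not passed after thinning with -0.44), VIM (-1.69 ± 0.25) and STMN1 (-0.79 ± 0.11). 2 growth factors of the EGF family were higher, AREG at 0.967, 0.162 and 1.31 against 0.301, 0.0910 and 0.245 (1.67 ± 0.20, edgeR adjusted p = 6.42e-06) and HBEGF (1.29 ± 0.20), out of 6 genes tested in that list with 2 higher and 1 lower. FGFBP1, a carrier that frees stored fibroblast growth factor, was at 1.96, 1.86 and 3.37 against 0.620, 0.387 and 0.889 (1.93 ± 0.13, edgeR adjusted p = 7.69e-10).

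The lists on fatty acid oxidation, fatty acid binding proteins, transporters, redox enzymes, the respiratory chain and ribosomes were added after values of these comparisons had been seen, so their counts are descriptions. BDH1, which makes 3-hydroxybutyrate, was at 0.345, 0.296 and 0.466 in KRT17-high cells against 0.123, 0.0434 and 0.103 in KRT17-low cells, with no overlap (2.21 ± 0.20, edgeR adjusted p = 1.19e-07).

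Fatty acid binding proteins carry fatty acids inside the cell, and the 3 genes of their list that were tested were higher. These were FABP5, FABP4 and RBP2, a retinol-binding protein, and the call of RBP2 did not hold without calf 3. FABP5 was at 22.2, 12.7 and 23.1 against 7.22, 2.21 and 4.91 (2.09 ± 0.13, edgeR adjusted p = 3.81e-10). FABP4 was at 0.235, 0.522 and 7.08 against 0.0847, 0.0119 and 0.217 (4.39 ± 0.39, edgeR adjusted p = 1.03e-07, and 5.21 without calf 1); most of its UMIs were in calf 3, and calf 1 lay under the level of 0.5 that the rule for the named genes asks for in each calf. Of 20 genes of mitochondrial fatty acid oxidation, 5 were higher and 0 lower (median 0.21), led by ACADS, the dehydrogenase of short chains, at 2.18, 2.36 and 3.34 against 0.997, 0.629 and 1.40 (1.42 ± 0.14, edgeR adjusted p = 2.08e-07). HSD17B13, a lipid droplet protein, was higher by 2.01 ± 0.14.

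Of 18 rumen transporters and carbonic anhydrases, 10 were higher and 4 lower, against 9.27% and 8.33% of all genes tested. Whichever calf was left out 8 of the 14 calls held, and after thinning 5 did. SLC14A1, the urea channel, was at 0.636, 0.321 and 0.671 against 0.228, 0.0660 and 0.167 (1.93 ± 0.16, edgeR adjusted p = 4.70e-08), and SLC16A1, the monocarboxylate transporter MCT1, at 4.12, 1.91 and 6.54 against 2.98, 0.914 and 3.41 (0.80 ± 0.12, edgeR adjusted p = 7.51e-05). The carbonic anhydrases moved both ways, with CA12 higher (1.17 ± 0.19, not passed after thinning with 0.82) and CA3 lower, at 4.78, 4.58 and 3.01 against 12.3, 10.2 and 3.50 (-0.95 ± 0.15, edgeR adjusted p = 0.000133). ATP1B1, a subunit of the sodium pump, was lower by -0.96 ± 0.17.

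Genes of both branches of energy metabolism were higher. Of 21 genes of glycolysis and hypoxia, 13 were higher and 1 lower, against 9.27% and 8.33% of all genes tested. Their median was 0.66, and 11 of the 14 calls held without calf 2. ENO1 was at 8.72, 5.96 and 6.68 against 3.86, 1.59 and 2.44 (1.48 ± 0.12, edgeR adjusted p = 3.11e-08) and LDHA at 7.42, 7.77 and 6.25 against 3.81, 3.11 and 2.82 (1.11 ± 0.10, edgeR adjusted p = 1.58e-07), both without overlap. Of 83 nuclear genes of the respiratory chain, 61 were higher and 2 lower, with a median of 0.48; without calf 2, 41 of the 63 calls held, and after thinning 18. CYCS, the electron carrier cytochrome c, was at 7.05, 2.84 and 4.90 against 2.10, 0.638 and 1.33 (1.89 ± 0.11, edgeR adjusted p = 1.76e-10).

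All genes tested gave 9.27% higher and 8.33% lower, the shares to set beside the 4 lists that follow. Among 78 ribosomal protein genes 61 were lower and 1 higher, a median of -0.34, but 1 of these 62 calls held without calf 2. Of 21 peroxiredoxins and glutathione enzymes 11 were higher and 2 lower (median 0.37). Whichever calf was left out 8 of these 13 calls held, and after thinning 6 did. PRDX6 was at 6.37, 8.12 and 18.6 against 2.85, 2.31 and 5.03 (1.60 ± 0.12, edgeR adjusted p = 1.26e-08), and PRDX5, MGST3 and the sulfur dioxygenase ETHE1 were higher by 1.40 ± 0.10, 1.27 ± 0.12 and 1.28 ± 0.10. Of 16 targets of NRF2, the factor of the oxidative stress response, 5 were higher and 0 lower, among them thioredoxin (TXN), at 12.6, 8.24 and 8.23 against 5.25, 2.30 and 4.05 (1.34 ± 0.12, edgeR adjusted p = 1.28e-07). Heat shock genes gave 6 higher and 1 lower of 15, with the chaperone HSPA5 higher by 0.98 ± 0.14.

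CYP26A1, which breaks down retinoic acid, was at 0.884, 0.575 and 1.61 against 0.0619, 0.0494 and 0.104. Its ratio was 14.3, 11.6 and 15.6 and its log2 difference 3.75 ± 0.15 (edgeR adjusted p = 1.01e-13), and it was also called without the pairing by calf. In the list of 10 retinoid genes tested 2 were higher and 2 lower, with DHRS3, a retinaldehyde reductase, at 0.138, 0.508 and 0.923 against 0.315, 0.884 and 1.49 (-0.82 ± 0.14, edgeR adjusted p = 0.000200).

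Although cells with a high mitotic level had been set aside by the rule, 10 of 17 S phase genes were higher and 0 lower. Their median was 0.70, and all genes tested gave 9.27% higher and 8.33% lower. With KRT17-low cells held to the same limits 12 were higher. Whichever calf was left out 7 of the 10 calls held, and after thinning 5 did. MCM5, a subunit of the replicative helicase, was at 1.80, 0.420 and 0.884 against 1.04, 0.165 and 0.549 (0.91 ± 0.14, edgeR adjusted p = 7.88e-05).

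The share of called genes varied between the signalling lists. Over all genes tested 9.27% were higher and 8.33% lower, and the Wnt, TGF-beta and YAP, and AP-1 lists were near these shares. Of 11 Notch genes 1 was higher and 4 lower, but only LFNG (-0.67 ± 0.13) kept its call whichever calf was left out, and it did not pass after thinning. Of 14 Wnt genes 1 was higher and 2 lower, with WNT5A at 0.0967, 0.0748 and 0.0555 against 0.0150, 0.0139 and 0.0162 (2.24 ± 0.33, edgeR adjusted p = 6.56e-05); after thinning it had 1.71 and did not pass (edgeR adjusted p = 0.334). Of 11 genes of Hedgehog signalling and of the outer root sheath of hair, 0 were called by edgeR, with 1 at an unadjusted p under 0.05, and 0 by DESeq2; the median was -0.45. Of 14 targets of TGF-beta and YAP 2 were higher and 1 lower, led by ID1 (1.24 ± 0.13). Of 18 immediate-early genes of the AP-1 group, which tissue digestion is known to raise, 2 were higher and 1 lower, and JUN was at 18.7, 14.4 and 34.6 against 16.3, 31.7 and 33.2 (edgeR adjusted p = 0.155). Of 24 interferon genes 1 was higher and 5 lower, but 3 of these 6 calls held whichever calf was left out and 0 after thinning. In the insulin-like growth factor list 1 of 10 was higher and 4 were lower; IGFBP3 was at 4.27, 15.7 and 2.11 against 2.69, 6.08 and 1.13 (0.96 ± 0.12, edgeR adjusted p = 9.40e-06), and IGFBP5 was lower by -0.72 ± 0.13, not passed after thinning with -0.52.

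The genes with the largest decreases among the named genes changed by about 2-fold, far less than the leading increases among them. For a decrease, the rule that named them asks for a level of 0.5 or more in the KRT17-low cells of each calf. Of all called genes, 48 were at least 4-fold lower and 112 at least 4-fold higher, so larger decreases lay outside the named genes. TXNIP, the inhibitor of thioredoxin, was at 4.63, 4.79 and 9.72 against 9.01, 13.6 and 17.0, lower in each calf though the classes overlapped (-1.13 ± 0.11, edgeR adjusted p = 4.01e-07). EPHX1, an epoxide hydrolase, was at 0.843, 0.499 and 1.05 against 1.92, 1.21 and 1.89 (-1.13 ± 0.12, edgeR adjusted p = 1.47e-06) and BASP1 at 0.442, 0.283 and 0.487 against 0.920, 0.884 and 0.876 (-1.24 ± 0.15, edgeR adjusted p = 6.50e-06), neither with overlap. HPGD, which inactivates prostaglandins, DCN, SELENOP, SOX4, MFAP2 and CCDC3 were lower by 1.05 to 1.29 on the log2 scale, HPGD by 1.90 without calf 3. All 24 named genes shown here, SERPINB10 (2.77 ± 0.25) and CST6 (1.94 ± 0.11) included, kept their call in each alternative that kept the pairing by calf. They were lower or higher in all 3 calves, which the rule that named them asks of each except TNFRSF6B. That rule also takes the largest called differences, so the kept calls are no independent check.

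**Figure D3:**
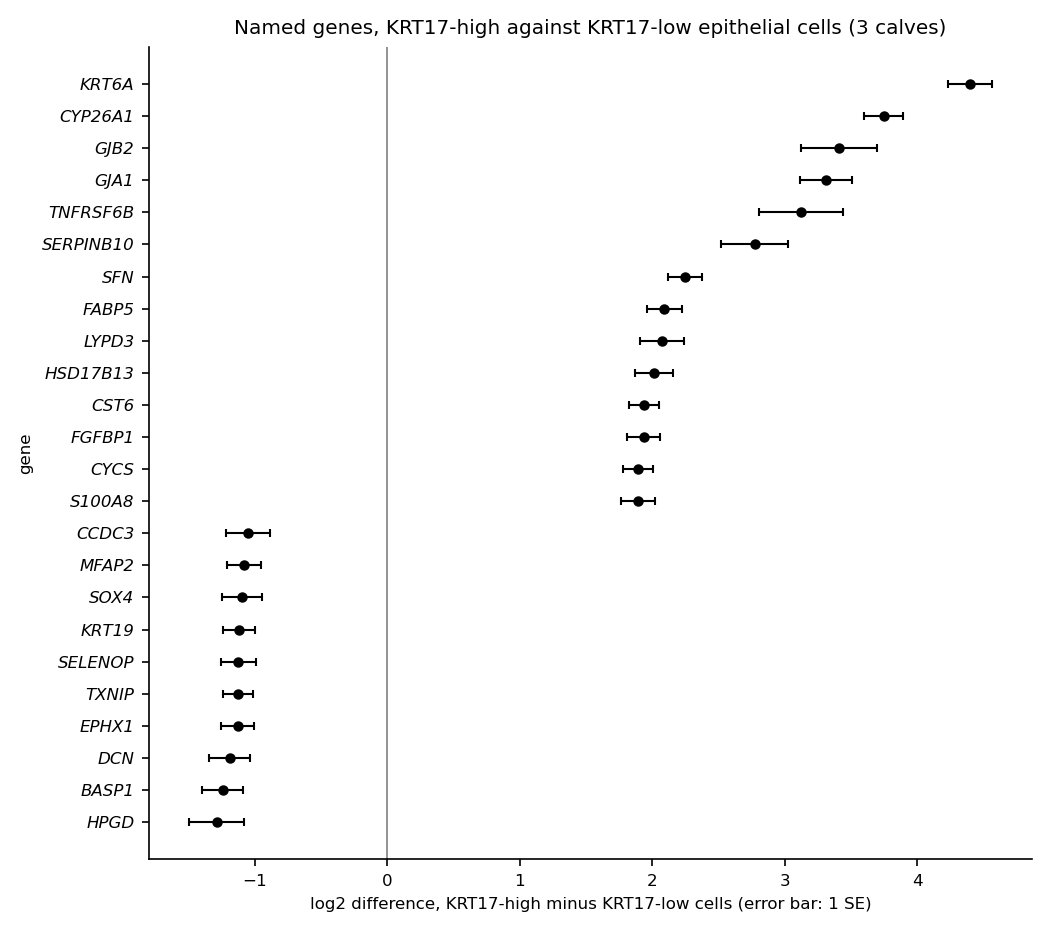
Log2 difference (KRT17-high minus KRT17-low cells, fitted over 3 calves with the calf as a block) of 24 named genes; points are the fitted values and bars 1 standard error. Among these 24 genes KRT6A stands at the top with 4.40, and the decreases end at -1.29 for HPGD. Larger decreases of genes that the rule did not name are not shown.

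**Figure D4:**
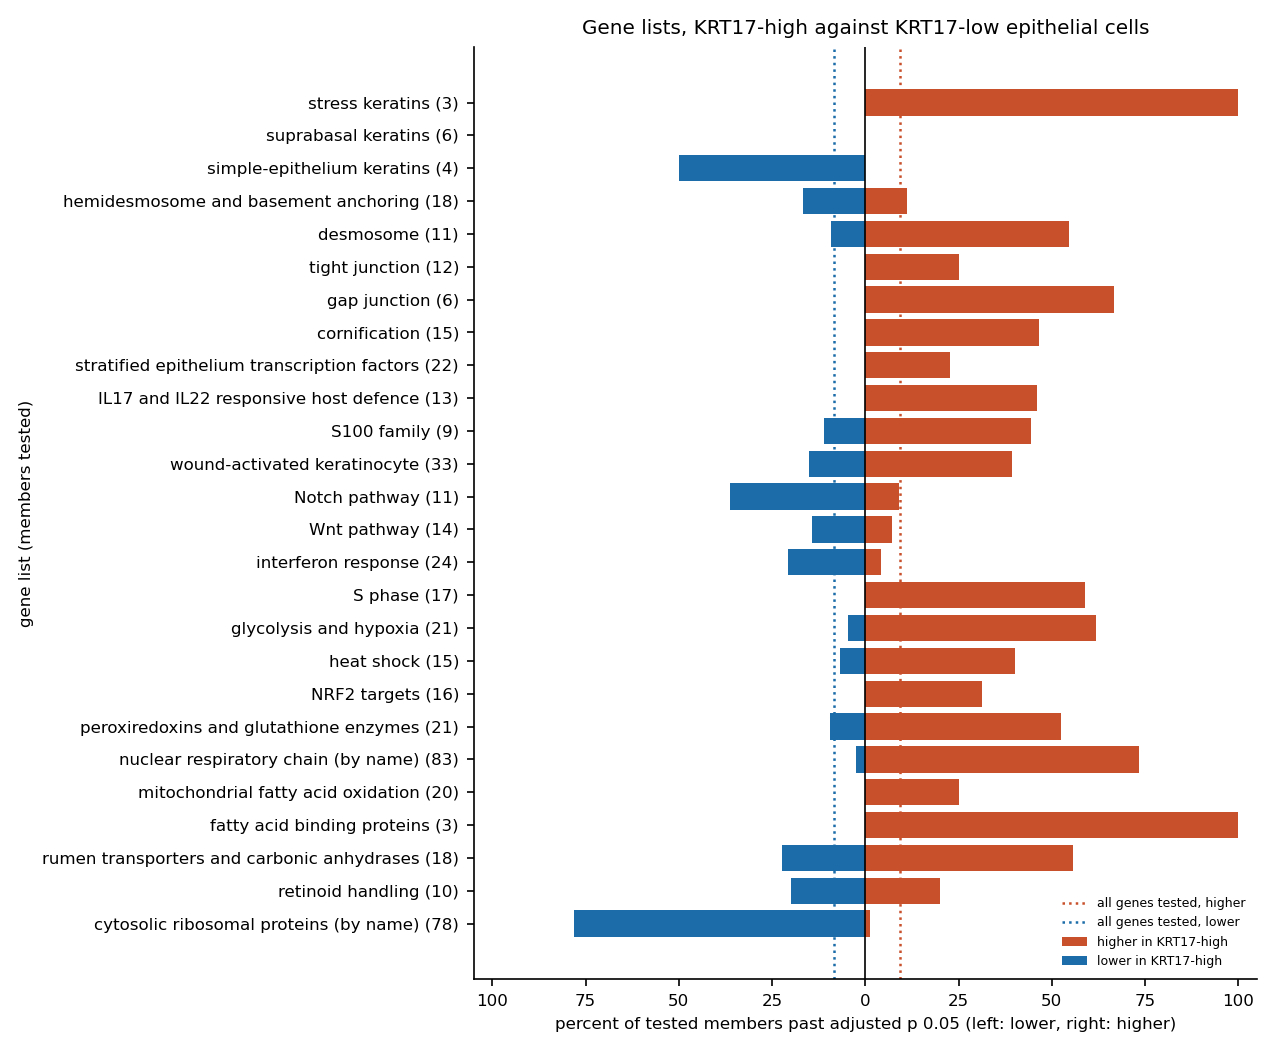
Percent of the tested genes of 26 lists that were higher (right) or lower (left) in KRT17-high than in KRT17-low cells at an adjusted p under 0.05, with the number tested in brackets; dotted lines give the percent of all genes tested. Gap junction, S phase, glycolysis and respiratory chain lists lie far to the right of the line for all genes, and ribosomal proteins to the left.

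Markers of other cell types were low in KRT17-high cells. By the rule both classes hold no UMI of PTPRC, PECAM1 or COL3A1. Low immune, endothelial and fibroblast levels were thus partly fixed in advance. The 12 immune markers summed to 0.401, 0.340 and 0.730 UMIs per 10000 against 0.354, 0.574 and 1.26 in KRT17-low cells, and CD2 and CD79A were at 0. Of 10 tested 1 was higher and 2 lower. The 8 fibroblast markers summed to 2.10, 1.51 and 2.22 against 4.48, 4.47 and 3.13, most of it DCN, with MFAP5 at 0. The 8 endothelial markers summed to at most 0.153 and the 6 smooth muscle markers to at most 0.0178, with TAGLN, CNN1 and DES at 0. Of the melanocyte, glial and Merkel markers MLANA, DCT, TYRP1, TYR, SOX10, CDH19, KRT20 and POU4F3 were at 0, and of the erythroid markers HBB, ALAS2 and HBG. Melanocyte markers summed to 0.0414, 0.00534 and 0.0128 against 0.00897, 0.00456 and 0.00445 in KRT17-low cells, higher in all 3 calves. Glial markers summed to 0.0276, 0.0588 and 0.115 against 0.0672, 0.0949 and 0.0810. Merkel markers summed to 0.0276, 0.135 and 0.128 against 0.0504, 0.120 and 0.103. In these lists 0 genes were called. The 8 genes of epithelial identity summed to 26.3, 36.6 and 19.8 against 19.5, 22.9 and 15.5, and EPCAM had a log2 difference of -0.09 ± 0.11 (edgeR adjusted p = 0.649). The part of these markers in the results was not tested. Apart from KRT17, which the rule used, the markers given for the class, KRT6A and TNFRSF6B, were higher in the sums of all 3 calves, while no UMI of KRT6A or TNFRSF6B was found in 26, 149 and 155 of the single cells.

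KRTDAP-high cells, epithelial cells with KRTDAP at 10 or more per 10000, are the differentiated cells of the epithelium by that gene and numbered 71, 162 and 7 in calves 1, 2 and 3. Summed over the cells of a calf, they too carried much KRT17, at 24.1, 39.9 and 34.5 against 30.7, 44.4 and 27.7 in KRT17-high cells. In calf 3 the KRTDAP-high sum was the larger. In single cells the median was 0, 4.89 and 37.0 per 10000 in KRTDAP-high cells, against 20.6, 32.4 and 20.7 in KRT17-high cells. A KRT17 level of 15 or more was found in 9 of 71, 60 of 162 and 4 of 7 KRTDAP-high cells. The classes thus overlapped in KRT17, while in calves 1 and 2 a minority of KRTDAP-high cells reached the KRT17 limit. KRT17-high cells had far less SPINK5, A2ML1 and IVL than these cells, and far more TNFRSF6B and SERPINE2. Of 7684 genes tested 1172 differed, 15.3%, of which 596 were higher in KRT17-high cells (7.76%) and 576 lower (7.5%), by edgeR's quasi-likelihood test as before. Without calf 2 209 genes were called and without calf 1 593, and calf 3 had only 7 KRTDAP-high cells. The median mitochondrial share of KRTDAP-high cells was between 8.84% and 11.1%, in each calf above that of KRT17-high cells, and its part was not tested.

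The genes lower in KRT17-high cells than in KRTDAP-high cells were led by SPINK5, at 0.207, 0.239 and 0.0555 against 11.3, 14.1 and 11.2, a log2 difference of -6.32 ± 0.29 (edgeR adjusted p = 1.20e-101). ARG1, A2ML1, IVL and WFDC18 were lower by 6.26, 5.32, 4.76 and 4.62 on the log2 scale. The leading genes in the other direction were TNFRSF6B, at 0.0250, 0.0341 and 0 in KRTDAP-high cells, with a log2 difference of 5.19 ± 0.42 (edgeR adjusted p = 8.41e-33), SERPINE2 (3.75 ± 0.31), the Notch regulator DLK2 (2.86 ± 0.27), the collagen chaperone SERPINH1 (2.82 ± 0.28) and IL1R2 (2.62 ± 0.26). IGFBP3 was higher by 2.57 ± 0.27. Several of these values shifted in size when 1 calf was left out, while their calls held. Without calf 2 DLK2 was at 6.53, IL1R2 at 4.04, SERPINH1 at 3.70, IGFBP3 at 3.61, ARG1 at -10.39 and IVL at -3.88. Without calf 1 IGFBP3 was at 1.98 and A2ML1 at -6.00.

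KRT6A and the connexin GJA1 were higher still in KRTDAP-high cells, at 7.93, 29.1 and 16.5 for KRT6A and 5.62, 5.22 and 12.3 for GJA1. The log2 differences were -2.03 ± 0.24 (edgeR adjusted p = 1.09e-15) and -2.15 ± 0.22 (edgeR adjusted p = 1.06e-19). GJB2 was at 3.97, 6.99 and 13.1 in KRTDAP-high cells against 0.857, 0.728 and 0.782 in KRT17-high cells. CYP26A1 was at 1.06, 0.238 and 5.13 against 0.884, 0.575 and 1.61, so KRTDAP-high cells held more of it in calves 1 and 3 and less in calf 2. S100A8 and SFN were also lower in KRT17-high cells, by 2.28 and 1.14 on the log2 scale. For FABP5, at 32.6, 24.3 and 24.1 in KRTDAP-high cells, the difference of -0.55 ± 0.24 did not pass the test (edgeR adjusted p = 0.113).

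Chemokine-high cells, with 10 or more UMIs of the 4 chemokines per 10000, numbered 142, 278 and 443. Of 8959 genes tested 2460 differed from KRT17-high cells, 27.5%, with 1282 higher in KRT17-high cells (14.3%) and 1178 lower (13.1%), and 1542 were called without calf 2. The median mitochondrial share of chemokine-high cells was 4.26%, 4.77% and 4.62%, and its part was not tested. TNFRSF6B was at 0.227, 0.668 and 0.202 in chemokine-high cells, lower in each calf though the classes overlapped, with a log2 difference of 1.39 ± 0.21 (edgeR adjusted p = 0.000102). CYP26A1, GJA1, KRT6A and SERPINB10 were among the leading genes, higher in KRT17-high cells by 6.02 ± 0.26, 5.04 ± 0.28, 3.99 ± 0.19 and 4.31 ± 0.28; GJA1 was at 6.11 without calf 2 and CYP26A1 at 6.64 without calf 3. FABP5 was higher by 3.79 ± 0.13 and S100A8 by 2.92 ± 0.25.

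The leading genes in the other direction were PLAC8, DCN, NFKBIA, IRF1 and HPGD. NFKBIA, the inhibitor that NF-kappa-B induces, was at 0.884, 1.77 and 3.61 in KRT17-high cells against 3.92, 8.87 and 8.70 (-1.93 ± 0.17, edgeR adjusted p = 3.07e-07), and IRF1, a factor of the interferon response, at 0.304, 0.249 and 0.773 against 0.817, 1.63 and 1.82 (-1.88 ± 0.22, edgeR adjusted p = 6.25e-06). PLAC8, DCN and HPGD were lower by 2.54, 1.99 and 1.80 on the log2 scale, PLAC8 by 1.61 without calf 2. The 3 comparisons share the KRT17-high cells, so they are not independent of each other.

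**Figure D5:**
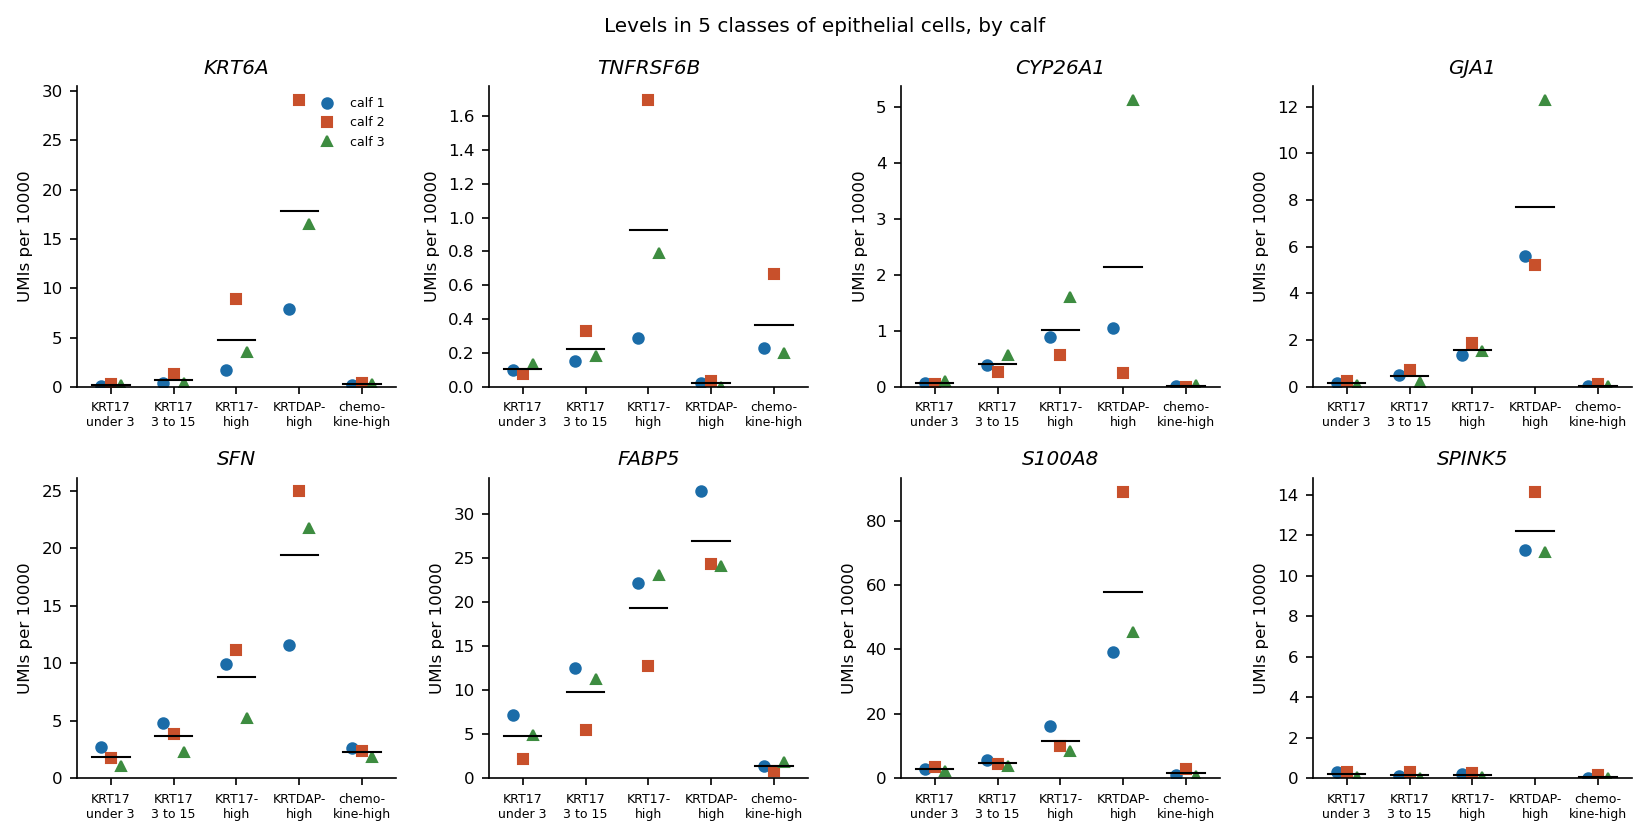
Level (UMIs per 10000 of the summed cells, linear axis from 0) of 8 genes in 5 classes of epithelial cells, with 1 point per calf and a black line at the mean of the 3 calves. The mean of TNFRSF6B is highest in KRT17-high cells, KRT6A, GJA1, SFN and S100A8 are higher in KRTDAP-high than in KRT17-high cells, and SPINK5, at 11.2 to 14.1 in KRTDAP-high cells, is at most 0.239 in KRT17-high cells.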

How the data were processed

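Droplet libraries (10x 3′ version 3) of the rumen of 3 newborn calves, 1 per calf, were analysed. The authors counted reads with Cell Ranger 3.1.0 against ARS-UCD1.2, and the deposited values are raw UMI counts per gene and barcode, without normalization, over 27270 genes, 7540 of them with an Ensembl ID only. Levels are UMIs per 10000 UMIs. No column of another sample was used (0 columns).

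Counts were summed per calf and class and tested with edgeR 4.0.16 in R 4.3.3 (TMM, filterByExpr, glmQLFit, calf as a block, Benjamini-Hochberg at 0.05). The calf pairs the classes because both come from the same animal. The 17 genes of the rule were kept in library sizes and left out of tests. The members, the gene lists and the tests were chosen with earlier results of these data known, and 7 of 43 lists were added after values were seen. Named genes were the 3 markers and, past the threshold, the same way in 3 of 3 calves and at 0.5 or more per 10000 in the higher class of each calf, the 14 largest increases and 10 largest decreases; the 5 largest each way in the other comparisons; and in each list up to 4 members with the highest level plus those called. FABP4, outside the first rule, comes from a list.

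Alternatives were DESeq2 1.42.0, no filter, no pairing, leaving out each calf, KRT17-low cells held to the limits of the members, thinning to 2000 UMIs, cells of 5000 UMIs or more, KRT17 limits of 25 and 10 per 10000 and 20% mitochondrial UMIs. Scrublet (scanpy 1.11.5) marked 0, 0 and 1 cells with its own limit and so did not work as planned; after the data were seen, the highest scores were removed instead, their number set by the barcodes of the library. That took 3.57%, 5.88% and 4.55% of KRT17-high cells of calves 1, 2 and 3 and 6.21%, 10.0% and 9.33% of KRT17-low cells. Doublets were otherwise kept. The test was checked on simulated counts. Some genes that these rules name, and 1 list, are not reported here. No sequence was analysed here.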

Additional observations from a re-analysis of the deposited data

How the results depend on the processing

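The number of genes that differed from KRT17-low cells, 2231, became 1357 with DESeq2, 491 after thinning to 2000 UMIs and 7 without the pairing by calf, that is with no replicate block, and lay between 959 and 2309 when a calf was left out, the lowest without calf 2. Of the 2231 genes, 1356 were among those of DESeq2, 477 among those of the thinned cells and 890 among those without calf 2, all in the same direction. Higher genes were 52.7% of the calls, against 62.4% with DESeq2 and 61.3% after thinning. Against KRTDAP-high cells, 1172 became 417 with DESeq2 and 248 without the pairing, with 209 to 1096 over the calves left out. Against chemokine-high cells, 2460 became 1188 and 212, with 1542 to 2201. The cause of these changes was not tested, apart from the loss of UMIs in thinning and of a calf in leaving it out. The other settings kept these counts within 1.5 times, and the share of KRT17-high cells, with 2.09% to 4.47% over the calves left out and 1.79% to 5.33% over the KRT17 limits, within its SD. Of the calls on single genes, 195 were lost and 18 kept without the pairing, 97 lost and 89 kept after thinning, 56 lost and 156 kept without calf 2, and 32 lost and 184 kept with DESeq2; each other setting lost at most 21. SLC26A6 reversed after thinning, with a log2 difference of -0.20 against 0.78. Removal of doublets by the limit of Scrublet itself was not run, since it marked 1 cell in all. With 56 KRT17-high cells, calf 1 limits what low genes can show.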

Other observations

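The cells that reached the KRT17 limit and were set aside differed in makeup between calves. The mitotic genes set aside 29 of 41 in calf 1, KRTDAP 60 of 108 in calf 2 and the chemokines 44 of 83 in calf 3. Their KRT6A level was 13.2, 43.6 and 2.34 UMIs per 10000 in calves 1, 2 and 3.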
